A study of Mus musculus with 4 samples.

Results

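The 7 genes described here encode the proteins with which leukocytes are caught and held at a vessel wall and passed through it, and they were taken by name from the 16892 measured genes: the selectins Selp and Sele, the chemokine receptor Ackr1, the immunoglobulin-family ligands Vcam1, Icam1 and Icam2, and the junctional protein Pecam1. Their levels were read in 34 deposited cell types and 4 libraries, and endothelial cells (245 of 8880 cells) were set beside secretory stromal cells (226 cells), the stromal type of the vas deferens that carries cytokine and chemokine transcripts. The droplet libraries were made from the caput, corpus and cauda epididymis and the vas deferens of untreated adult male FVB/NJ mice aged 10 to 12 weeks. The 8 organs of 4 mice were divided into these regions and the pieces of a region were pooled, so the 4 libraries share their animals, there was 1 library for each region, and a difference between regions cannot be told apart from a difference between libraries. No p-value is given for this reason, and because the deposited cell types were clustered from the same counts.

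Leukocytes leave the blood in steps. Selectins on activated endothelium slow the passing cell, chemokines displayed on the vessel wall activate its integrins, the integrins bind immunoglobulin-family ligands such as ICAM-1 and VCAM-1, and the cell then crosses the junctions, where PECAM-1 sits. Postcapillary venules are the usual site of this traffic, P-selectin is stored in endothelial granules, and E-selectin, VCAM-1 and ICAM-1 are known to be induced by inflammatory cytokines through NF-κB.

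Selp and Sele lie side by side on chromosome 1 (mm10, the build of the files, which is GRCm38; positions from RefSeq GRCm38.p6), with Sele at 164039614 to 164058487, Selp at 164115264 to 164150026 and 56776 bases between them. Ackr1 is farther along the same chromosome (173331886 to 173333503), Vcam1 is on chromosome 3 (116110020 to 116129688) and Icam1 on chromosome 9 (21015940 to 21028814). Icam2 (106377656 to 106388139) and Pecam1 (106654213 to 106715281) are both on chromosome 11. The RefSeq table held a start-site window for 4 of the 7 genes (Selp, Sele, Ackr1 and Icam1). The 250 bases before the start are shown for the pair of selectins, which were found in the same cells, and for Icam1, which was found in many cell types. Capitals mark matches, on either strand, to 3 motifs: GGAANTTCC, a symmetric NF-κB core; TGANTCA, which includes the AP-1 element TGACTCA; and TATAAA.
Selp, chr1:164115014-164115263, plus strand: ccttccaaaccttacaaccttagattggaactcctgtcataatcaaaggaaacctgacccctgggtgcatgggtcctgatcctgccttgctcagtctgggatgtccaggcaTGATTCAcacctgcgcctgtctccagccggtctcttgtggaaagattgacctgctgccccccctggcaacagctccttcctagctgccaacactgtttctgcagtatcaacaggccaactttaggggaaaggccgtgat
Sele, chr1:164047984-164048233, plus strand: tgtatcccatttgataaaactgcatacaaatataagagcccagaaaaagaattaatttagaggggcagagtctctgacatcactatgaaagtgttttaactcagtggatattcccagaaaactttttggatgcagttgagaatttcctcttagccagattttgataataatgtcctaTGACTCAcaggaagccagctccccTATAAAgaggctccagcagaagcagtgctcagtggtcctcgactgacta
Icam1, chr9:21015690-21015939, plus strand: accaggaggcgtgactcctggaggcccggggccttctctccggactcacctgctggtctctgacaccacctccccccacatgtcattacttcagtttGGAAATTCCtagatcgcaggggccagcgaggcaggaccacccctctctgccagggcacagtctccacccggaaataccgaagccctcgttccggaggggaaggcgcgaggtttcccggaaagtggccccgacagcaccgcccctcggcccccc
The Sele window lies within the annotated span of the gene. TGANTCA was present in both selectin windows, as TGACTCA in Sele and as TGATTCA, which is not the AP-1 element, in Selp, and in 6.75% of 32851 windows of this length, TATAAA in the Sele window and in 12.4%, and GGAANTTCC in the Icam1 window and in 0.813%. The Ackr1 window held no match to the 3 motifs. A match describes these letters and no bound site.

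The unit used throughout is UPM, a gene's unique molecular identifiers (UMIs) per 1000000 UMIs of the group of cells. Intervals are exact 95% intervals for counting error only, and they understate the spread between cells, since a few cells held many of the UMIs. The reads are 3′ tags, so a level is compared between cells for 1 gene and never between genes. Library totals ranged from 4408989 to 10744928 UMIs over 1433 to 3506 cells, and the median cell held 2590 UMIs in the endothelial type, 3066 in secretory stromal cells and 935 in principal cells, the absorptive and secretory epithelium. The endothelial type carried its markers: 9 of 10 endothelial genes, Cdh5, Egfl7 and Emcn among them, were at least 4 times as high there as in secretory stromal cells, and Ptprc, the common leukocyte antigen, had 4 UMIs. Of the 8880 cells, 43 barcodes occurred in more than 1 library, and 3 endothelial cells bore such a barcode.

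The adhesion genes fell into a group found mainly in endothelium (Selp, Sele, Ackr1, Icam2 and Pecam1) and a pair, Vcam1 and Icam1, found in endothelium, stroma and other cells. Endothelial cells held 89.1% of all Selp UMIs, 86.6% of Sele, 80.2% of Pecam1, 75.6% of Icam2 and 66.5% of Ackr1, although they were 2.76% of the cells. By contrast they held 22.3% of Vcam1 UMIs, less than the 40.5% in secretory stromal cells, and 6.43% of Icam1 UMIs, less than the 24% in myofibroblasts and the 23.0% in main basal cells. Such shares also follow the size of a type, and there were 975 myofibroblasts and 917 main basal cells. In level the order for Icam1 was the reverse: 875 UPM in endothelium, 711 in myofibroblasts and 513 in main basal cells.

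**Figure D1:**
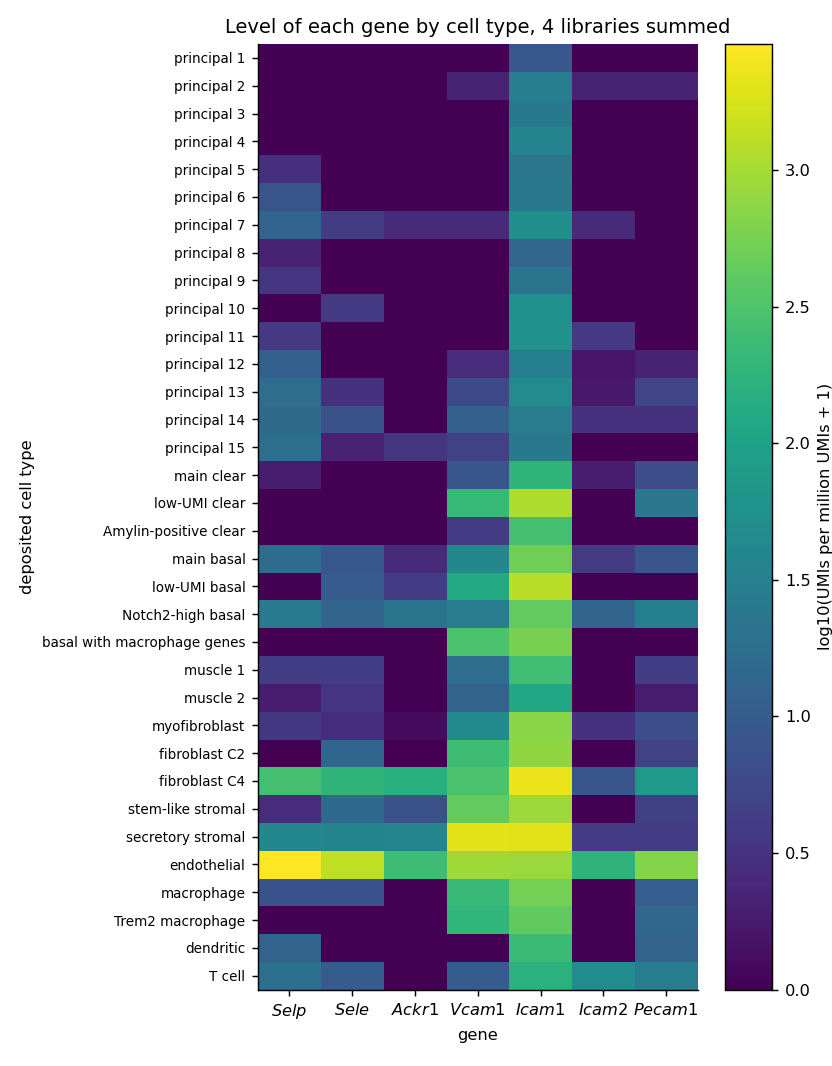
Level of the 7 genes (columns) in the 34 deposited cell types (rows), the 4 libraries summed; colour gives log10 of UPM plus 1. The endothelial row is bright in all columns, Selp, Sele, Ackr1 and Pecam1 also appear in fibroblast C4, and Icam1 is above 0 in every row.

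By the rule of at least 20 UMIs and a level at least 4 times the highest of the other 6 broad types (stromal, muscle, immune, basal, clear and principal), 5 of the 7 genes were called endothelial: Selp, Sele, Ackr1, Icam2 and Pecam1. Among all 5038 genes with enough UMIs, 3.63% met this rule. The endothelial level was 168 times the next broad type for Selp, 83.7 times for Sele, 48.0 times for Pecam1, 20.8 times for Ackr1 and 20.8 times for Icam2. Vcam1 was 2.63 times the next broad type, the stromal cells, and Icam1 was at 0.919 times it, so neither passed. These genes took part in the clustering that made the types, and the counts describe the types without testing them.

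Selp encodes P-selectin. It stood at 2895 UPM in endothelial cells (interval 2780 to 3012, 2418 UMIs), from 110 of 245 cells. The next type, a stromal cluster called fibroblast C4, was at 263 UPM (207 to 331). By library, the endothelial level was 1483 UPM in caput, 2805 in corpus, 1218 in cauda and 3642 in vas deferens. The vas deferens interval (3469 to 3822) lay above the other 3, and those of caput and cauda overlapped. Few cells carried this signal outside the vas deferens: 7 of 50 cells in caput, 10 of 39 in corpus and 2 of 12 in cauda held all of it, and 1 cauda cell held 82.4% of that library's UMIs, whereas 91 of 144 vas deferens cells had a UMI.

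Sele encodes E-selectin, which is made on activation and is not stored. Its endothelial level was 1342 UPM (1265 to 1423, 1121 UMIs in 112 cells), against 181 UPM in fibroblast C4 and 34.0 UPM in secretory stromal cells. Across the libraries it was 826 UPM in caput, 742 in corpus, 268 in cauda and 1896 in vas deferens. The vas deferens was again above the rest, caput and corpus had overlapping intervals, and cauda was lowest with 20 UMIs in 2 cells.

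Ackr1 encodes an atypical chemokine receptor that binds and carries chemokines without signalling, and it is a known marker of venular endothelium. Its endothelial level was 244 UPM (212 to 280), from 204 UMIs in only 24 cells, and fibroblast C4 followed at 153 UPM (111 to 206). Its order among the libraries was not that of the selectins: 177 UPM in caput, 566 in corpus, 562 in cauda and 96.8 in vas deferens. Corpus and cauda had overlapping intervals and were above caput and vas deferens. Of the 42 cauda UMIs, 88.1% came from 1 cell, so the cauda level rests on that cell.

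Vcam1, the ligand of the integrin VLA-4, was highest in secretory stromal cells at 2065 UPM (1958 to 2176), followed by endothelial cells at 917 (853 to 984), stem-like stromal cells at 424 (387 to 464) and fibroblast C4 at 302 (242 to 374). Each of the first 3 exceeded its neighbour beyond counting error, and fibroblast C4, the basal cells with macrophage genes (300 UPM from 7 UMIs), fibroblast C2 (241) and macrophages (222) did not differ by this measure. In endothelium it was 530 UPM in caput, 919 in corpus, 602 in cauda and 1089 in vas deferens, and the intervals of corpus and vas deferens overlapped. In the 15 principal cell clusters Vcam1 ranged from 0 to 10.5 UPM.

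Icam1, the ligand of the β2 integrins LFA-1 and Mac-1, was detected in all 34 types. Fibroblast C4 (2270 UPM, 2097 to 2453) and secretory stromal cells (2010, 1905 to 2120) led, and they differed by 1.13 times (1.03 to 1.24). The low-UMI basal cells (1286), the low-UMI clear cells (1099), the stem-like stromal cells (894), endothelium (875) and fibroblast C2 (782) followed, and no neighbours among them were separated beyond counting error. Principal clusters ranged from 7.84 to 55.3 UPM. Within endothelium the library levels were 805 UPM in caput, 773 in corpus, 482 in cauda and 999 in vas deferens, and only the intervals of cauda (338 to 667) and vas deferens (909 to 1095) did not overlap.

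The clusters named for few UMIs were above their larger counterparts in Icam1. Low-UMI basal cells were 2.51 times main basal cells (2.26 to 2.78), and low-UMI clear cells were 6.01 times main clear cells (4.29 to 8.28). The part of cell depth in these ratios was not tested.

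Icam2, which is made constitutively by endothelium and by some leukocytes, was at 178 UPM in endothelial cells (151 to 209) and at 45.3 UPM in T cells (5 UMIs in 5 of 44 cells), and the ratio of the 2 was 3.94 (1.65 to 12.3). It was the one member highest in caput endothelium: 360 UPM in caput, 116 in corpus, 201 in cauda and 141 in vas deferens. Only caput and corpus, and caput and vas deferens, had intervals that did not overlap. Unlike the selectins it was spread thinly over cells, with at most 8 UMIs in any of the 73 cells that had one.

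Pecam1, a general endothelial junction marker, varied least. It was at 660 UPM in endothelium (606 to 717, 146 of 245 cells), against 71.2 UPM in fibroblast C4. The library levels were 551 UPM in caput, 517 in corpus, 830 in cauda and 717 in vas deferens, and the lowest and highest differed by less than for any other member.

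**Figure D2:**
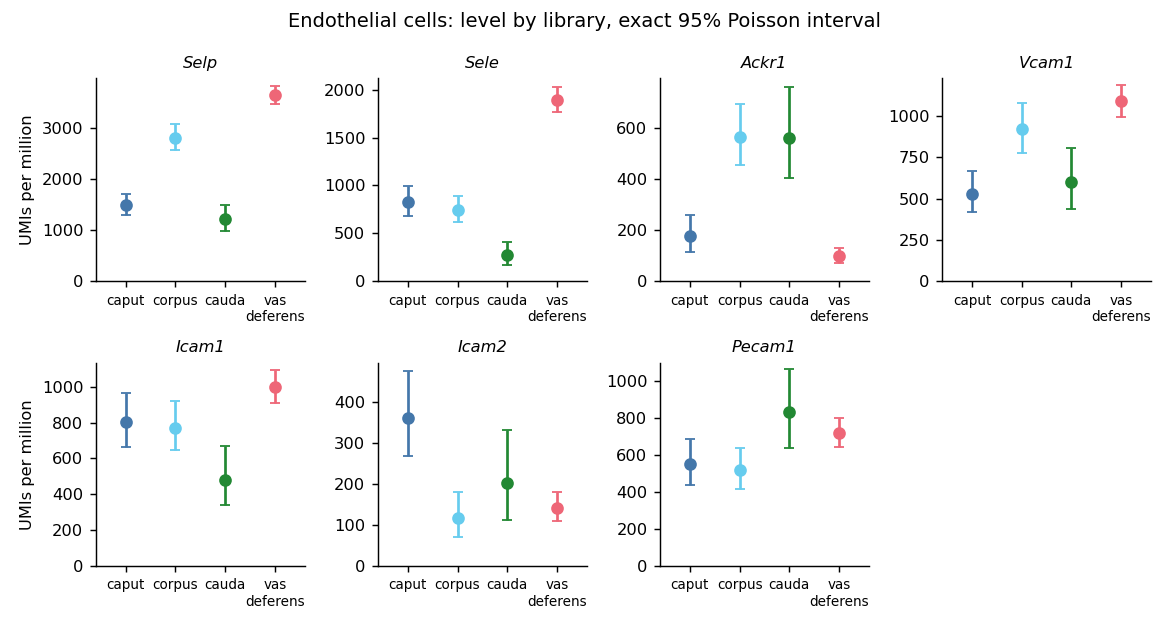
Endothelial cells only: level of each gene in UPM (y axis, a linear scale of its own in each panel, from 0) in the 4 libraries (x axis); points are levels and bars are exact 95% Poisson intervals. Selp and Sele are highest in vas deferens, Ackr1 in corpus and cauda, and Icam2 in caput.

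Endothelial cells of the vas deferens were then compared with those of the 3 epididymal libraries summed (144 and 101 cells). With at least 20 UMIs and a 2-fold difference, 1 of 7 members, Sele, was called higher in vas deferens, where 9.88% of 3634 genes were, and 1 of 7, Ackr1, was called higher in epididymis, where 9.44% were; neither count stands apart from this background. Sele was 2.79 times as high in vas deferens (2.42 to 3.21, 1896 against 680 UPM). Ackr1 was at 0.230 times (0.161 to 0.323, 96.8 against 420 UPM). Selp was 1.82 times as high (1.67 to 1.98), Vcam1 1.53 times (1.32 to 1.78), Icam1 1.37 times (1.18 to 1.60) and Pecam1 1.21 times (1.02 to 1.44), while Icam2 was at 0.630 times (0.448 to 0.882). Without the corpus library the counts became 2 (Selp joined at 2.62 times) and 2 (Icam2 joined at 0.461 times), without the caput library Icam2 moved to 0.990 times, and without the cell with the most UMIs in each group Selp also passed, at 2.04 times. Both directions of the 2 called genes held against each single epididymal library: Sele was 2.29, 2.55 and 7.08 times as high as in caput, corpus and cauda, and Ackr1 was at 0.548, 0.171 and 0.172 times. These ratios rest on few cells. For Ackr1, 1 cell held 50% of the UMIs in vas deferens (7 cells with a UMI) and 56% in caput (4 cells). In corpus 1 cell held 20.4% (11 cells) and in cauda 88.1% (2 cells). The 20 Sele UMIs of cauda came from 2 cells.

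The difference in the selectins lay in how many cells carried them. To compare shares, every cell was thinned to 1000 UMIs and shallower cells were left out (45 of 245 endothelial cells). A Selp UMI was found in 65.8% of vas deferens endothelial cells (56.6 to 74.2%, 79 of 120) and in 22.5% of epididymal ones (13.9 to 33.2%, 18 of 80). For Sele the shares were 68 of 120 cells (47.3 to 65.7%) and 16 of 80 (11.9 to 30.4%), and for Ackr1 they ran the other way, 4 of 120 (0.916 to 8.31%) and 16 of 80 (11.9 to 30.4%). Among the cells that had a UMI, the Sele level was alike in both, 2618 UPM in vas deferens and 2573 in epididymis, and the Selp level was lower in vas deferens, 5095 against 8498 UPM.

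Shares of the other members were closer. Vcam1 was found in 47 of 120 vas deferens and 16 of 80 epididymal endothelial cells, Icam1 in 35.8% and 30.0%, Icam2 in 17.5% and 22.5% and Pecam1 in 39.2% and 36.2%. As the background of these shares, principal cells at the same depth had a Selp UMI in 0.634% of cells, Sele in 0.0528%, Vcam1 in 0.317%, Icam1 in 3.12%, Icam2 in 0.0528% and Pecam1 in 0.106%, and Ackr1 in 0 of 1894 cells, for which the exact upper limit of the share of cells with a UMI is 0.195% and 3 cells would be 0.158%. The unthinned medians were 2590 UMIs in endothelial and 935 in principal cells. Without thinning the endothelial shares were 44.9% for Selp, 45.7% for Sele, 9.80% for Ackr1, 38.0% for Vcam1, 51.8% for Icam1, 29.8% for Icam2 and 59.6% for Pecam1.

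**Figure D3:**
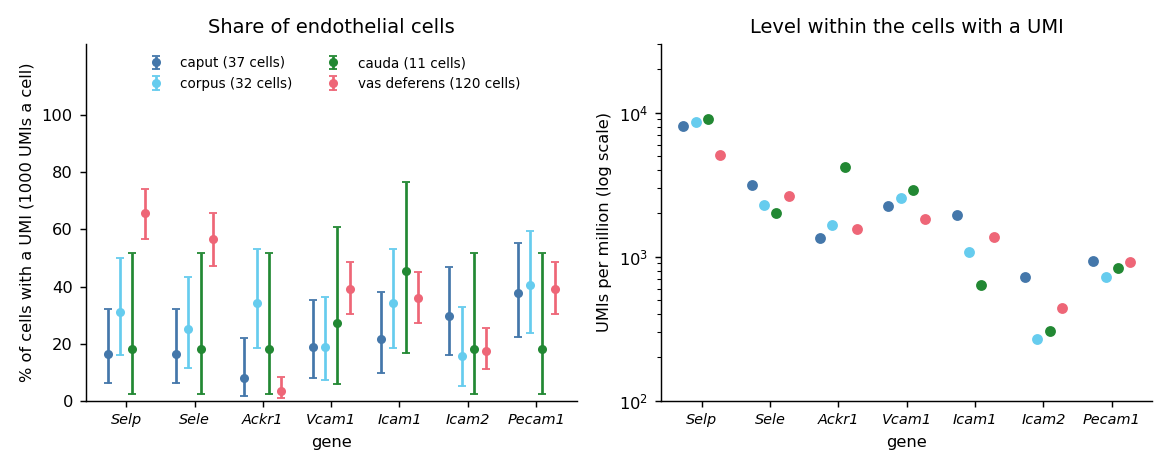
Endothelial cells by library: left, percent of cells with a UMI of each gene after thinning to 1000 UMIs a cell, with exact 95% binomial intervals; right, level among the cells with a UMI before thinning, in UPM on a log axis. The vas deferens share of Selp and Sele (65.8% and 56.7%) is above the other libraries, whereas on the right its Selp point (5095) is the lowest.

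Other gene groups moved between the same 2 sets of endothelial cells, and their part in the differences was not tested. All 4 of the measurable mural genes (Rgs5, Acta2, Myh11 and Pdgfrb, markers of pericytes and smooth muscle) were at least 2 times as high in epididymal endothelial cells, with a summed level over the 6 listed genes of 912 UPM against 112 in vas deferens. Of 9 immediate early genes, which respond within minutes to stimulation and to tissue dissociation, 6 were higher in epididymis (Fos 1978 against 653 UPM), and none in vas deferens; the median of the list was 0.477 times, where that of all tested genes was 1.03 times. None of the 7 NF-κB feedback genes passed in either direction (median 1.12 times). Among vessel-type markers, 4 of 4 arterial genes, 3 of 6 venous genes and 1 of 5 capillary genes were higher in epididymis, and Lyve1 of the lymphatic list was higher in vas deferens (30 against 3 UMIs) with Pdpn higher in epididymis. None of the 10 endothelial markers passed in either direction. Of the other lists, 3 of 4 fibroblast and 2 of 5 secretory stromal genes were higher in epididymis and 2 of 5 secretory stromal genes in vas deferens, and Jam2, the only junction gene of 9 that passed, was higher in epididymis. Krt8 of 2 principal genes and 2 of 6 cytokine receptors were also higher in epididymis. Pf4 of the platelet list (82 against 3 UMIs), Krt14 of 2 basal genes and Cd44 of 2 counter-receptors were higher in vas deferens. The Pf4 level was 715 UPM in immune cells and 102 UPM in all endothelial cells.

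All 245 endothelial cells form 1 deposited cluster with no finer division, so the members were related to each other cell by cell, over the 200 cells that reached 1000 UMIs. Selp and Sele were found together: 78 of the 97 cells with Selp had Sele (80.4%, 71.1 to 87.8%), against 6 of the 103 without (5.83%, 2.17 to 12.2%). Vcam1 was present in 55 of 97 against 8 of 103 and Icam1 in 48 of 97 against 19 of 103. Ackr1 was almost confined to cells with Selp, at 19 of 97 against 1 of 103. Pecam1 differed little, 43 of 97 against 33 of 103, with overlapping intervals, and Icam2 tended the other way, 14 of 97 against 25 of 103, also with overlapping intervals. The pairs were also seen in the vas deferens library alone, where 63 of 79 cells with Selp and 5 of 41 without had Sele, Vcam1 was in 41 of 79 against 6 of 41, and Icam1 in 38 of 79 against 5 of 41.

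The cells with Selp also differed in markers of vessel type, although 79 of these 97 cells, and 41 of the 103 without, were from the vas deferens. Vwf, the von Willebrand factor stored with P-selectin, was found in 16 of 97 cells with Selp and 1 of 103 without, Lrg1 in 39 against 14, and Nr2f2, which specifies venous identity, in 21 against 8. For the other listed venous genes, Tmem252, Slc38a5 and Ackr3, the counts in cells with and without Selp are not given here. The venous part of this split therefore covers only Vwf, Lrg1 and Nr2f2. Between regions, Slc38a5 (0 UMIs in vas deferens, 56 in epididymal endothelium) and Ackr3 (17 against 58) ran opposite to Selp. So did Lrg1 (142 against 289), and Tmem252 (188 against 135) did not pass in either direction. Gpihbp1, which anchors lipoprotein lipase in capillaries, was found in 1 of 97 against 28 of 103. The arterial factor Sox17 was in 1 against 20 and the arterial Notch ligand Dll4 in 4 against 15. Ly6c1 was in 21 against 52. The intervals overlapped for Plvap (47 against 39), Aqp1 (31 against 25), Nr2f2 and Dll4. Icam2 was found more often with the capillary markers Gpihbp1 and Ly6c1: Gpihbp1 was in 13 of the 39 cells with Icam2 and 16 of the 161 without, and Ly6c1 in 25 against 48. The counts by Icam2 of the other listed capillary genes, Plvap and Aqp1 among them, are not given here. In the vas deferens library alone, Gpihbp1 was in 0 of 79 cells with Selp and 12 of 41 without, Lrg1 in 28 against 1 and Sox17 in 1 against 7, with intervals that did not overlap. There the intervals overlapped for Vwf (13 against 1), Nr2f2 (17 against 3), Dll4 (3 against 6) and Ly6c1 (19 against 19). Before thinning, the endothelial cells with Selp had a median of 3055 UMIs and those without 2115.

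**Figure D4:**
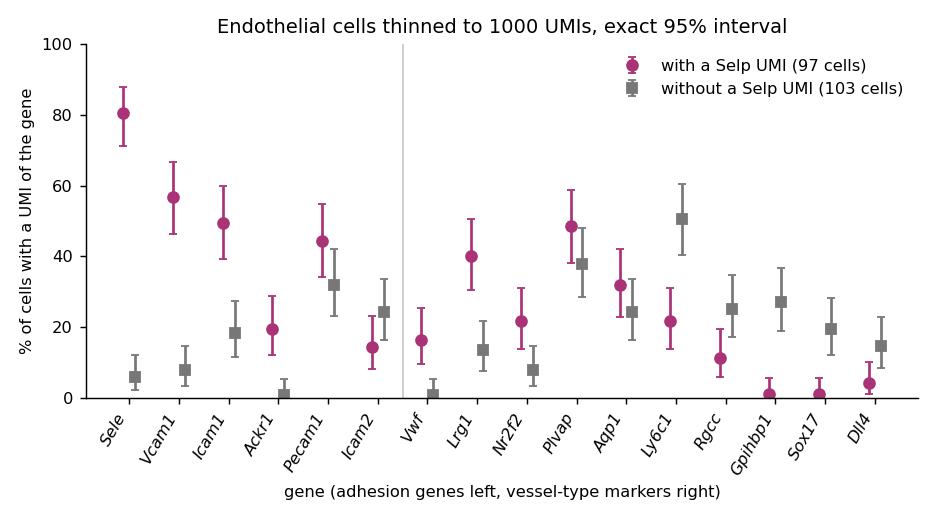
Endothelial cells thinned to 1000 UMIs, split by whether a Selp UMI was found (97 cells with, 103 without); the y axis gives the percent of each set with a UMI of the gene on the x axis, with exact 95% binomial intervals. Sele, Vcam1, Icam1, Ackr1, Vwf and Lrg1 are higher in the cells with Selp, Gpihbp1, Sox17 and Ly6c1 are lower, and Pecam1, Icam2, Nr2f2, Dll4, Plvap and Aqp1 overlap. The capillary gene Rgcc is also plotted, and its counts are not given in the text.

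Lymphatic markers were rare. Prox1, the lymphatic master regulator, was found in 5 of the 200 cells and Lyve1 in 7, 6 of the 7 being cells with Selp; the 6 listed lymphatic genes summed to 145 UPM over all endothelial cells. The number of the 7 members found in 1 cell had a median of 2, with 43 of 200 cells having none and 8 cells having 6.

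In level rather than detection, Vcam1 was 19.4 times as high in endothelial cells with Selp as in those without (14.02 to 27.7, 1756 against 90.3 UPM, no thinning). Sele was 53.1 times as high (34.6 to 86.2), Icam1 2.95 times (2.49 to 3.503) and Pecam1 1.06 times (0.890 to 1.25), while Icam2 was at 0.497 times (0.346 to 0.706). Within the vas deferens library these ratios were 6.65 for Vcam1 (4.54 to 10.1), 22.5 for Sele (13.6 to 40.4), 4.50 for Icam1 (3.21 to 6.48), 0.742 for Pecam1 (0.588 to 0.9399) and 0.452 for Icam2 (0.269 to 0.765).

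Secretory stromal cells came almost wholly from the vas deferens (213 of 226, with 8 from cauda, 5 from corpus and none from caput). By the rule of at least 20 UMIs and a 4-fold difference, 5 of 7 members were higher in endothelial than in secretory stromal cells (Selp, Sele, Ackr1, Icam2 and Pecam1), where 14.9% of 5565 genes were, and 0 of 7 were higher in secretory stromal cells, where 7.94% were. The median ratio of the 7 members was 39.4, against 1.43 over all genes tested. Vcam1 and Icam1 were the exceptions, and both were lower in endothelium: Vcam1 was at 0.444 times (0.406 to 0.485) and Icam1 at 0.435 times (0.397 to 0.477) the secretory stromal level, so both passed a 2-fold threshold and not the 4-fold one.

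Within the vas deferens library Selp had 1656 UMIs in endothelial and 0 in secretory stromal cells. With the 0 raised to a floor of 3 UMIs over the group the ratio was 795.58, and its exact lower limit without the floor was 646. At the same floor Pecam1 was at 156.6 times (326 against 0 UMIs, exact lower limit 126.65), and Ackr1 at 21.1 times (44 against 0 UMIs, exact lower limit 16.48). Sele was 59.2 times as high (38.5 to 96.1), with 21 UMIs left in secretory stromal cells at 1 to 4 per cell, and Icam2 was 46.1 times as high (12.3 to 389, 64 against 2 UMIs). Vcam1 stood at 1089 UPM in endothelial and 2025 in secretory stromal cells, and Icam1 at 999 and 1970, which is 1.86 and 1.97 times as high in secretory stromal cells, so neither passed the 2-fold threshold in this library.

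**Figure D5:**
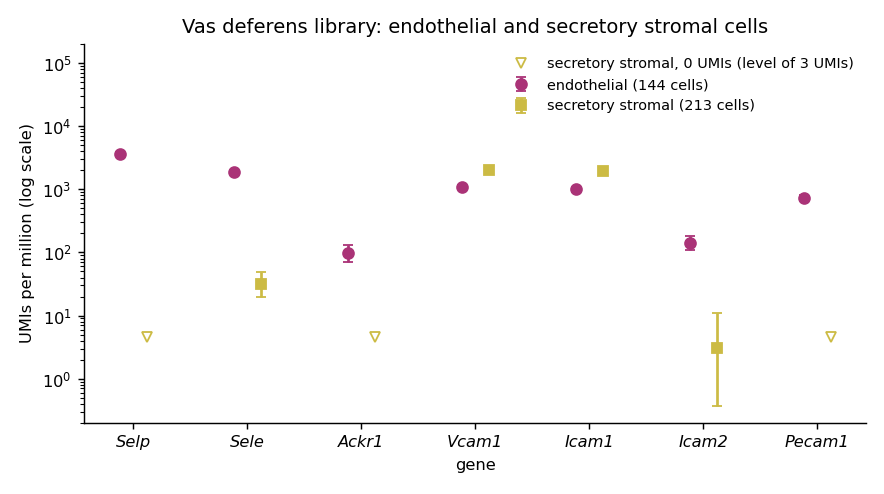
Vas deferens library: level of each gene in endothelial cells (circles, 144 cells) and secretory stromal cells (squares, 213 cells) in UPM on a log axis, with exact 95% Poisson intervals; open triangles stand at the level of 3 UMIs where secretory stromal cells had 0. Vcam1 and Icam1 are the 2 genes with the squares above the circles.

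The few Selp and Ackr1 UMIs of the secretory stromal type came from 1 corpus cell with 1716 UMIs. It held 26 UMIs of Selp, 25 of Ackr1, 56 of Vcam1 and 2 of Pecam1, and it carried 5 of 7 endothelial markers (Cdh5, Tie1, Tek, Emcn, Egfl7, Esam and Cldn5). Without this cell Selp, Ackr1 and Pecam1 were at 0 UMIs in the type and Vcam1 was at 1987 UPM. Leaving out the vas deferens library kept 13 secretory stromal cells, this one among them: the members called higher in endothelium then numbered 2 (Sele and Pecam1), Vcam1 and Icam1 were called higher in secretory stromal cells, and the Ackr1 ratio turned to 0.342.

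Detection in secretory stromal cells was broad for the pair of shared ligands. At 1000 UMIs a cell, Icam1 was found in 77.3% (70.6 to 83.1%, 143 of 185) and Vcam1 in 61.6% (54.2 to 68.7%), against 33.5% and 31.5% of endothelial cells. In the vas deferens the secretory stromal level was 4.65 times that of the stem-like stromal cells for Vcam1 (4.18 to 5.17) and 2.21 times for Icam1 (2.04 to 2.41), so Vcam1 set these neighbouring stromal types farther apart. The paper lists Vcam1 among the genes that distinguished the secretory type, so its level there describes the type without testing it.

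The gene lists placed the members among their partners. Of 10 junction and transmigration genes, 9 had enough UMIs and 6 of them were called higher in endothelial than in secretory stromal cells (Cdh5 652 against 8.88 UPM, Esam 376 against 4.44), with a median of 19.7 times. Of 9 other adhesion receptors, 5 were testable and 3 were higher (Bcam, Mcam and Cd151), and Madcam1, the gut addressin, had 0 UMIs in endothelium. Of the 11 counter-receptors on leukocytes, Itgb1 (419 UPM in endothelium, 119 in immune cells) and Cd44 (40.7 and 215 UPM) had enough UMIs and neither passed, and the other 9 had at most 4 UMIs each in endothelial cells; in the immune cells Selplg, the ligand of P-selectin, was at 117 UPM and Itgb2, the β2 integrin chain, at 61.8 UPM. No NF-κB feedback gene was higher in endothelium and 1 of 7, Nfkb1, was higher in secretory stromal cells (median 0.685), and of 8 cytokine receptors 1, Il1r1, was higher in secretory stromal cells (median 1.10). Among the immediate early genes 1 of 9, Nr4a1, was higher in secretory stromal cells (median 0.890).

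Markers of other cells were counted in the same comparison. All 7 secretory stromal and all 6 fibroblast markers were higher in secretory stromal cells, 3 of 4 testable mural genes were higher in endothelium (summed 476 against 130 UPM), and so were 3 of 4 arterial, 3 of 5 capillary and 3 of 6 venous genes, 1 of 2 lymphatic genes (Lyve1, with Pdpn the other way), 2 of 2 testable principal genes (Epcam and Krt8, with 114 UPM over the 4 listed) and 3 of 3 basal genes (352 UPM over 4 listed, 268 of it Itga6). Of the platelet genes Gp1bb was higher in secretory stromal cells and Pf4 was higher in endothelium (85 UMIs, 82 of them in vas deferens), while Ppbp, Gp9 and Treml1, which define platelets, were at 0. Of 6 pan-leukocyte genes only Cd52 was testable and it did not pass (172 against 121 UPM). The part of such cells in the members' levels was not tested. At least 1 of the 7 endothelial markers was found in 109 of the 110 endothelial cells with Selp and 91 of the 135 without, and in 109 of the 112 with Sele and 91 of the 133 without.

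Outside endothelium, part of the UMIs of the endothelial members lay in a few cells that carried endothelial transcripts. Of 8635 other cells 28 (0.324%) had UMIs of at least 3 of the 7 endothelial markers, and 1 of these 28 was called a doublet; they held 135 of the 295 Selp UMIs found outside endothelium (45.8%), 42 of 173 of Sele (24.3%), 53 of 103 of Ackr1 (51.5%), 63 of 136 of Pecam1 (46.3%) and 27 of 48 of Icam2 (56.2%). By cells, 23 of the 102 other cells with Selp, 21 of 64 with Sele and 13 of 27 with Ackr1 had at least 1 marker. Among other cells without the gene the share was 9.84% for Selp, 9.82% for Sele and 9.87% for Ackr1. The 2 sets differed in depth. Median UMIs with and without the gene were 5273.5 and 1792 for Selp, 2448 and 1799 for Sele, and 957 and 1813 for Ackr1. Main basal cells were 13 of the 28 cells with at least 3 markers. Leaving the 28 cells out lowered Selp in main basal cells from 15.5 to 1.98 UPM, Pecam1 from 7.26 to 0.990 and Icam2 from 2.94 to 0.396, while Icam1 there moved from 513 to 514 UPM.

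Under the same step, which left out 2 of its 319 cells, fibroblast C4 stood at 236 UPM of Selp, 179 of Sele and 107 of Ackr1. The 3-marker rule is less sensitive in shallow cells. Cells with Selp had a median of 578 UMIs in fibroblast C4 and 4855 in main basal cells, so these levels cannot be compared with those of main basal cells after the step. The signal of fibroblast C4 sat in few cells: Selp in 10 of 319, Sele in 6 and Ackr1 in 7, of which 8, 4 and 6 were from corpus. Of the 10 cells with Selp, 8 had at least 1 of the 7 endothelial markers, against 54 of the 309 without (17.5%). Over the whole cluster the 7 markers summed to 342 UPM, against 3344 UPM in endothelial cells. The mural markers summed to 9681 UPM and the fibroblast markers to 5589 UPM, and these sums over different genes are not ranked. Icam1 in fibroblast C4, in contrast, came from 188 of 319 cells.

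Vcam1 differed between regions in several types outside endothelium. In main basal cells it was at 36.1 UPM in caput, 4.56 in corpus, 7.73 in cauda and 126 in vas deferens, 8.46 times as high in vas deferens as in the epididymal libraries together (6.20 to 11.7). Of the 44 caput UMIs, 47.7% came from 1 cell. In myofibroblasts it was at 17.1, 20.8, 48.4 and 133 UPM in the same order, 5.00 times as high (3.64 to 6.85), and in macrophages at 0, 0, 50.5 and 332 UPM, 12.3 times as high (4.03 to 61.3, 65 against 3 UMIs). As the background in epithelium, principal cells had Vcam1 at 3.84 UPM in vas deferens and 0.410 in epididymis. That is 9.38 times as high (2.25 to 83.4, 18 against 2 UMIs), a fold as large as in these types. A Selp UMI was found in 53 of 1360 vas deferens principal cells, with a median of 1 UMI in these 53. Icam1 did not follow this order: it was 1.66 times as high in vas deferens in main basal cells (1.53 to 1.80) but at 0.762 times in myofibroblasts (0.679 to 0.854) and 0.648 times in macrophages (0.473 to 0.888).

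Among 11614 genes with at least 20 UMIs in 1 type, the genes most like each member over the 34 types were found by Pearson's r of log2(UPM + 10); the types share libraries, and no p is given. Sele was the closest to Selp (r = 0.933), followed by Ptprb, the endothelial receptor phosphatase (0.928), and Ackr1 (0.913). For Sele they were Ackr1 (0.945), Ptprb (0.938) and Cyp2d22 (0.938), and for Ackr1 they were Sele, Selp and Ptprb (0.886). Icam2 was closest to Meox1 (0.987), Gimap5 (0.965) and Gimap4 (0.961), and Pecam1 to Eltd1 (0.920), Robo4 (0.913) and Sox17 (0.907). The shared pair had other neighbours, which were Igfbp4 (0.876), Ier3 (0.875) and Nrp1 (0.868) for Vcam1 and Rbms1 (0.936), Ifrd1 (0.929) and the chemokine Cxcl10 (0.924) for Icam1.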

How the data were processed

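Single-cell suspensions of the 4 regions were made by enzymatic digestion and run on droplet (10x) single-cell RNA-Seq, with 1 library per region. The authors aligned reads to mm10 with HISAT2 2.0.4 against RefSeq transcripts, counted UMIs per gene with ESAT, filtered barcodes by their UMI total (the deposited cells held 350 to 14999 UMIs before ambient removal), and removed ambient RNA with a modified SoupX, which took away 3.54% of the UMIs. The deposited table holds these UMI counts, whole numbers with no normalization, and a second deposited table gives each cell's library, total UMI count and final cell type, which were used as given. Cell type names follow the paper's where the labels could be matched. Whether the counting used strand is not given in the sources used here.

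The level of a gene was its UMI total in a group of cells, scaled to 1000000 UMIs of that group (UPM). A gene was called higher with at least 20 UMIs in the higher group and a ratio of at least 4 (2 between regions), a count of 0 being raised to 3 UMIs; the background is all genes with 20 UMIs in either group. Intervals are exact at 95%: Poisson for levels, conditional binomial for ratios, Clopper-Pearson for shares. Shares were taken after thinning each cell to 1000 UMIs (fixed seed). Doublets were called by simulation within each library (16 to 98 cells a library, with 42.1 to 71.5% of simulated doublets between types recovered), and were kept in the main values. The 7 genes and all gene lists were chosen with earlier results of these data known. The 7 members are named everywhere. Other genes are named only if they are among the 6 of a list with most UMIs in endothelial or secretory stromal cells, or the 3 most alike in pattern to a member. Intervals came from scipy 1.17.1 and doublet scores from scikit-learn 1.9.0, with tables in pandas 2.3.3 and numpy 2.4.6 under Python 3.11.15 and plots in matplotlib 3.10.9. The call rule was tested on simulated data.

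Alternatives were other fold and UMI thresholds, cells with at least 1000 UMIs, means over cells, no doublets, and each library left out. After the data were seen, leaving out cells with endothelial markers outside endothelium, and the cell with the most UMIs in each region's group, were added.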

Additional observations from a re-analysis of the deposited data

How the results depend on the processing

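The count of members called endothelial against every other broad type was 5 and ranged from 5 to 6 over 11 alternatives. For endothelial against secretory stromal cells the count of 5 ranged from 2 to 5 and that of 0 from 0 to 2 when each library was left out in turn, the extremes being without the vas deferens library, which leaves 13 secretory stromal cells; a 2-fold threshold gave 2 (Vcam1 and Icam1) higher in secretory stromal cells. The one ratio that reversed was that of Ackr1, at 0.342 without the vas deferens library and up to 6.97 without another library, while without the corpus library secretory stromal cells had 0 UMIs and no ratio was formed. Averaging over cells gave 3.61 for Ackr1.

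Between vas deferens and epididymal endothelium, the count of 1 member higher in vas deferens became 3 at 1.5-fold (Selp, Sele and Vcam1), 0 at 4-fold, 3 with means over cells (Selp, Sele and Vcam1) and 2 without the top cell of each group; with a library left out it ranged from 1 to 2. The count of 1 member higher in epididymis became 2 at 1.5-fold (Ackr1 and Icam2), and ranged from 1 to 2 with a library left out. The share of Selp cells that had Sele was 65.6% after thinning to 500 UMIs and 92.7% without thinning, against 80.4%. Of 373 alternative values 271 stayed within the main interval or within 1.5 times the count. No paired analysis was possible because each region has 1 library, which pools the same mice as the others, and the labels carry no replicate numbers. With 12 cauda endothelial cells and 74703 UMIs there, cauda levels rest on few cells, and the vas deferens, with 144 cells and 454661 UMIs, is the best covered.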
